A study of Mus musculus with 8 samples.

Results

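The subject here is a cluster of repeated genes on mouse chromosome 5, near 15 Mb, that includes Gm30417, Gm21190 and Gm17019, and its peaks of 6mA, N6-methyladenine, which is adenine with a methyl group and is rare in the DNA of mammals. Members are the peaks that the authors assigned to these 3 genes, together with every peak of the 1100 kb window around them, each peak taken once. The outermost of them began at 14844287 and ended at 15892959 on chromosome 5 (mm10). The 3 genes were chosen by the measured peaks themselves, each having a site that every list of 1 brain group held and that the other brain group lacked. This gave 110 of the 90798 peaks in 8 lists, 78 in embryo brain and 32 in embryonic stem cells, and 35 of the 110 were assigned to 1 of the 3 genes. No peak of the 3 genes lay outside the window. Each list holds the peaks of 1 immunoprecipitation with a 6mA antibody, called against input DNA that was not immunoprecipitated. The 3 NTD lists come from brains of embryos sorted into a neural tube defect group, whose dams ate a low-folate diet and received 1.5 mg/kg of the folate antagonist methotrexate (MTX) at gestational day 7.5. The 3 CON lists come from brains of normal embryos, labelled as given normal saline, and neural tube closure was examined at embryonic days 9.5 to 10.5. The 3 lists of a brain group are repeated immunoprecipitations under 1 deposited sample, called against 1 input, and the labels do not say whether they came from separate embryos. An SD over n = 3 lists therefore gives the spread between immunoprecipitations, which may be technical. FA0 and FA4 are Sv/129 mouse embryonic stem cells grown in medium without folate or with 4 mg/L folate, with 1 list each. Neither a strain for the brains nor a diet for the CON dams is given in the labels. The nearest peaks outside the window, both in FA0, had 7 tags (fold 2.57) at Pclo and 8 tags (fold 2.89) at Cacna2d1, and the outermost peaks inside it had 9 tags (fold 3.13, NTD replicate 3) and 8 tags (fold 2.87, CON replicate 2).

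The cluster is one of several places on mouse chromosome 5 where genes of the Speer family stand in tandem copies. Speer is short for spermatogenesis-associated glutamate-rich protein, and the family is known for expression in mouse testis. Tandem copies are hard to read by sequencing, because a short fragment can match more than 1 copy. In RefSeq (GRCm38.p6, the assembly of mm10) the window holds 19 genes, of which 10 are protein coding, 5 are long noncoding RNA genes, 3 are transcribed pseudogenes and 1 is a pseudogene. Gm21190 (15524456 to 15529222) and Gm17019 (15028950 to 15033016) are protein coding, and Gm30417 (15610032 to 15634110) is a long noncoding RNA gene whose span encloses Speer4d.

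Promoter sequences show how alike the copies are. The RefSeq table holds 12 promoters in the window, each from 250 bases before to 50 bases after a transcript start. Of these, 9 belong to 1 family, taken as at least 90% identity to the Gm21190 promoter over at least 200 aligned bases. The other 8 promoters of that family in the window, those of Gm9758, Speer4e, Gm10354, Gm17019, Gm21149, Gm21083, Speer4d and Speer4c, were 98.1% to 99.1% identical to it. The Gm21190 promoter is shown because the NTD site described below reaches into it, and that of Gm17019 because an FA4 peak covers much of it. Capitals mark the bases under the peak of NTD replicate 2 at Gm21190 (chr5:15529173-15529472, minus strand) and under the FA4 peak at Gm17019 (chr5:15032958-15033257, minus strand). In the promoter of Speer4c (chr5:15714222-15714521, minus strand), the nearest in sequence to that of Gm21190, capitals mark the bases that differ.
Gm21190: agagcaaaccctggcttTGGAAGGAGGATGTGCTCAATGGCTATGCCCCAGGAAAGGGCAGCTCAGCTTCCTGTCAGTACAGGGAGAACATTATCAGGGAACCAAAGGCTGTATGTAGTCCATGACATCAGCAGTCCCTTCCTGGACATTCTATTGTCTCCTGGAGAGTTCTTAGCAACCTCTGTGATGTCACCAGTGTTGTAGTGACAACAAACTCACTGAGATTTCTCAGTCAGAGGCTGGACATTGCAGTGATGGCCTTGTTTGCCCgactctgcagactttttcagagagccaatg
Gm17019: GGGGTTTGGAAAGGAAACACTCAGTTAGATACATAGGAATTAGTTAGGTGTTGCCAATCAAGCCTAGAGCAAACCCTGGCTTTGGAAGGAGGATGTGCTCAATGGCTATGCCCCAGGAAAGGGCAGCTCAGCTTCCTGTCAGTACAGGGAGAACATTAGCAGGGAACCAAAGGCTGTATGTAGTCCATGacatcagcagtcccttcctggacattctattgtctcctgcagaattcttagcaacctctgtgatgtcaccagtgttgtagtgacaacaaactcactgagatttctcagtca
Speer4c: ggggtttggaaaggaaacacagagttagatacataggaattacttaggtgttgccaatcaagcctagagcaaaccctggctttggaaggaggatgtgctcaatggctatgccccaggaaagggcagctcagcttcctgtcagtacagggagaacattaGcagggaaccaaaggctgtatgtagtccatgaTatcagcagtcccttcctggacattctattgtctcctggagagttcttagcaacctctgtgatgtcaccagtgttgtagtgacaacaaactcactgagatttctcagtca
Over the 235 bases that could be aligned, Speer4c differed from Gm21190 at 2 positions, T94G and C126T, counted from 1 at the 5′ end of the printed Gm21190 promoter with the Gm21190 base given first. The longest stretch that all 9 promoters share without a change is 31 bases, shown here in capitals throughout.
Shared stretch: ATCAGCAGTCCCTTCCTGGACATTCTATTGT
It was found in 10 of the 32851 promoters of the table (0.0304%), all of them of this family. Of the 251 words of 50 bases in the Gm21190 promoter, 243 (96.8%) also stood in the promoter of another gene, and for Gm17019 the number was 154 (61.4%). Across the table, 3.41% of promoters had at least 60% of such words in another gene's promoter. The read length and the treatment of reads that match several copies are not given in the sources used here, so the placement of a peak on 1 copy is uncertain throughout.

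In brain, the cluster was rich in peaks in both groups. In NTD the 3 lists held 15, 12 and 14 peaks in the window (13.7 ± 1.53, SD, n = 3 lists) and CON lists 12, 16 and 9 (12.3 ± 3.51, SD, n = 3 lists). The ranges overlapped, and the means differed by less than the spread among the CON lists. Whole lists differed in length, the NTD lists having 5790, 5620 and 7100 peaks against 2797, 6614 and 3992 for CON. As a share of its list the cluster had the other direction, NTD having 0.223 ± 0.032% against 0.299 ± 0.113% for CON (SD, n = 3 lists). These shares overlapped too, and CON replicate 1, the shortest list, had the highest (0.429%). The window on its left, of the same 1100 kb, held 2, 6 and 1 peaks in NTD against 0, 2 and 1 in CON. The window on its right held 2, 8 and 3 in NTD against 1, 0 and 1 in CON. In each of the 6 brain lists the cluster thus held more peaks than either flank. Cut into tiles of the same length, the genome gave medians of 1 to 3 peaks per brain list, and the share of its 2375 tiles with at least as many peaks as the cluster was 0.379%, 0.547% and 0.337% in NTD against 0.295%, 0.253% and 0.632% in CON. The window was chosen with these lists known, so these shares describe it and test nothing.

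In the stem cells the number of peaks was less unusual. FA0 and FA4 held 16 peaks each in the window. The left flank held 12 and 8 and the right flank 13 and 7. The share of tiles with at least as many peaks was 50.9% in FA0, where the median tile held 16, and 8.04% in FA4, where it held 7. FA0 and FA4 have 1 list each, so their values stand side by side without a replicate check.

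**Figure D1:**
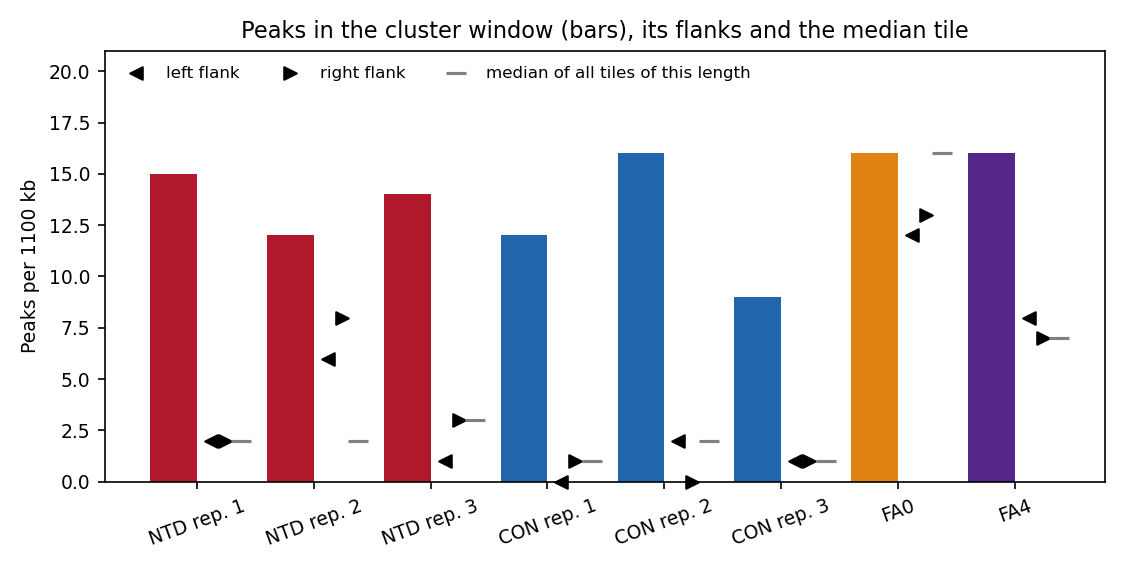
Peaks per 1100 kb (y axis) in each of the 8 lists (x axis), with a bar for the cluster window, triangles for its left and right flanks and a dash for the median of all tiles of that length. The brain lists hold 9 to 16 peaks in the window against at most 8 in a flank, and FA0 holds 16 in both the window and the median tile.

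Peaks fell in a left and a right block. None of the 8 lists had a peak from 15062136 to 15462753, a stretch of 401 kb in which the RefSeq table has no gene. Whether the assembly holds sequence there was not examined here, so the absence of peaks may not describe DNA that could be read. The left block, with Gm9758, Speer4e, the transcribed pseudogene Speer8-ps1, Gm10354 and Gm17019, held 6, 2 and 5 peaks in NTD against 7, 8 and 5 in CON, with 9 in FA0 and 7 in FA4. Its counts overlapped between the brain groups, but as a share of the list they did not, with 0.104%, 0.0356% and 0.0704% in NTD below 0.250%, 0.121% and 0.125% in CON. The right block, with Gm21149, Gm21190, Gm21083, Gm30417, Speer4d and Speer4c, held 9, 10 and 8 in NTD, 5, 7 and 4 in CON, 7 in FA0 and 9 in FA4. Here the counts of all 3 NTD lists stood above those of all 3 CON lists. As a share of the list the right block's counts overlapped, with 0.155%, 0.178% and 0.113% in NTD and 0.179%, 0.106% and 0.100% in CON. Counts in the right flank also stood apart, but the lists differ in length and no share of the list was taken there. The flank counts therefore say nothing about a difference between the groups. NTD replicate 3 and CON replicate 2 each had 1 more peak further on, assigned to the noncoding gene 4930519H02Rik. The division was made after the values were seen. The right block holds the NTD sites that led to the choice of genes, and the left block holds the CON site. Every NTD count on the right and every CON count on the left thus includes peaks fixed by that choice. The separations between groups in either block are therefore a description and support nothing.

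**Figure D2:**
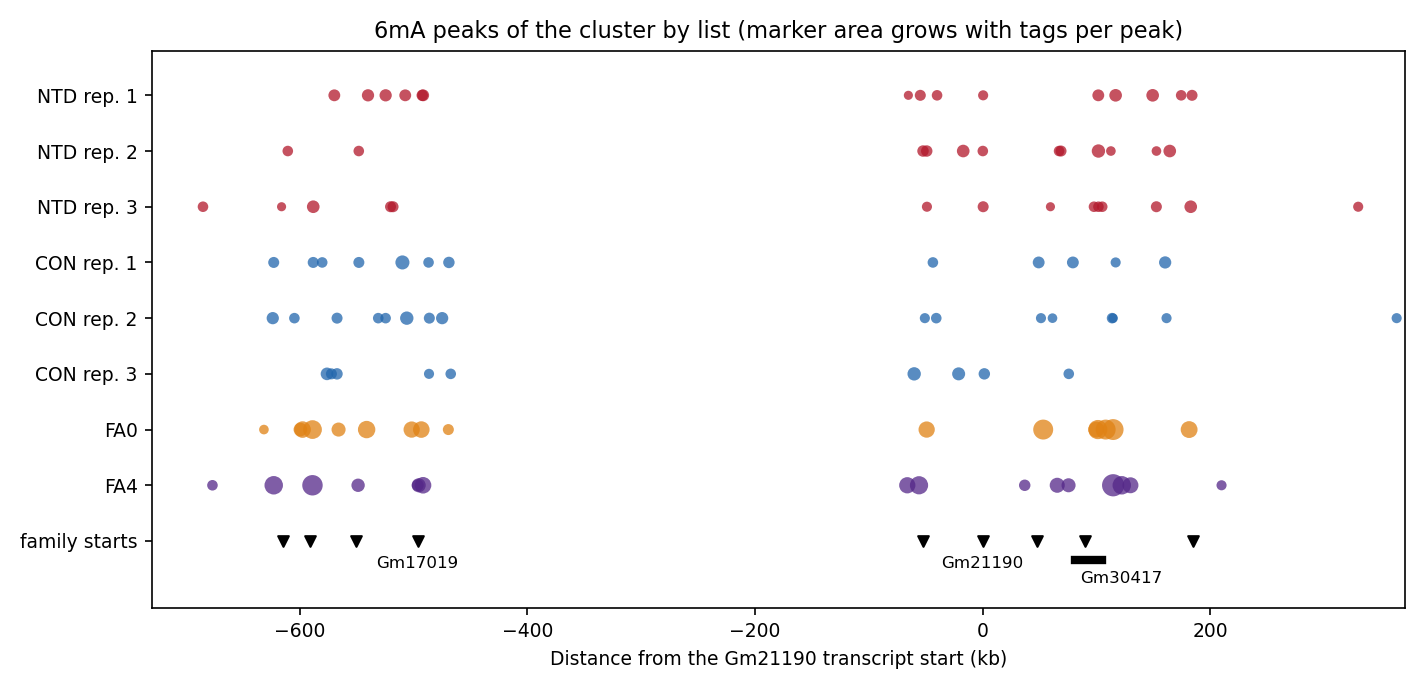
Summits of the cluster's peaks by list (y axis) against distance from the Gm21190 transcript start in kb (x axis), with marker area growing with the tags per peak. Triangles mark the 9 family transcript starts, the black bar is Gm30417, and an empty stretch of 401 kb separates the left and right blocks.

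The authors' classes spread the brain peaks over all kinds of sequence, with 26 upstream of genes, 20 intergenic, 17 in introns and 15 in promoters. Of the 110 summits, 6 lay within 1 kb of one of the family's 9 transcript starts and 46 within 10 kb. The share of the window's sequence that lies so near a start was not set beside these counts. They therefore show neither an excess nor a lack of summits at the starts. Of those within 1 kb, 4 were NTD summits, at Gm21190 and Gm21149, and 2 were FA4 summits at Gm17019, while no CON or FA0 summit was that near. The NTD summits at Gm21190 are those of the site that led to its choice, which no CON list holds. This difference between NTD and CON therefore supports nothing.

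For the sites that chose Gm30417, Gm21190 and Gm17019, peaks were joined to a site where they overlapped by at least 1 base. Over the genome, 8 of 31119 brain sites (0.0257%) were held by the NTD lists alone in this way and 16 (0.0514%) by the CON lists alone. The cluster held 2 of the former and 1 of the latter among its 65 brain sites. These counts made the choice and support nothing.

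The Gm30417 site lies in an intron (15630444 to 15631112). NTD replicates 1, 2 and 3 had peaks of 12, 16 and 9 tags there, with deposited folds of 3.29, 4.57 and 2.60. The fold is the authors' enrichment over input. Only replicate 2 had a deposited q of at most 0.05 (q = 0.00114), and the other q values were 1. A stretch of 139 bases, from 15630883 to 15631021, lay under all 3 peaks. The background at the 3 peaks, in the same order, was 1.39, 1.28 and 1.30 times the commonest value of the list, a measure defined with the background results. FA0 had a peak of 36 tags (fold 3.51, q = 1.18e-06) at 15630359 to 15630598, which overlapped the peak of NTD replicate 2 by 155 bases and the other NTD peaks by none. The cell lists used another transcript set, and there this sequence was assigned to Speer4d. No CON or FA4 peak reached the site.

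The authors assigned Gm30417 2, 2 and 3 peaks in NTD against 0, 2 and 0 in CON, so that the counts met at 2. Of the NTD peaks outside the site, the one with the highest fold of all 78 brain peaks in the cluster (4.82, 14 tags, q = 0.00175, replicate 1) lay upstream of the gene at 15645929 to 15646192. CON replicate 1 had a peak of 8 tags (fold 2.52) overlapping it by 185 bases, which the authors' annotation gave to the transcribed pseudogene 4930572O03Rik. By position, both brain groups held this place, although by gene symbol they did not.

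The Gm21190 site (15529203 to 15529831) covers most of the printed promoter and runs on upstream. Its peaks in NTD replicates 1, 2 and 3 had 8, 9 and 10 tags and folds of 2.89, 3.19 and 3.44, all with q = 1. The 3 peaks did not share a base. Replicate 1 overlapped replicate 2 by 60 bases and replicate 3 by 137, and replicates 2 and 3 did not overlap. All 3 had the commonest background of their list. CON replicate 3 had a peak of 11 tags (fold 1.96) at 15530556 to 15530811, further upstream and also called a promoter peak of Gm21190. At the level of the gene, each NTD list had 1 peak, and CON had 0, 0 and 1. The cells had 1 peak in FA0 and 2 in FA4 that were assigned to Gm21190, all of them classed as intergenic and none in its promoter. They lay 49162 to 66272 bases from its start, and the nearest family start was that of Gm21149. No cell peak of the window was assigned to Gm21149.

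The Gm17019 site lies upstream of the gene (15042498 to 15043304) and was held by the CON lists. CON replicates 1, 2 and 3 had 9, 10 and 8 tags there with folds of 2.69, 3.51 and 2.40, all with q = 1. Replicates 1 and 2 did not overlap, and replicate 3 overlapped them by 159 and 22 bases. Gm17019 as a whole did not separate the groups. Its peaks numbered 3, 0 and 2 in NTD, 3, 3 and 2 in CON and 3 in each cell list, overlapping between the brain groups. Its strongest brain peak by fold, in CON replicate 2, had 16 tags (fold 3.84, q = 0.0215). In FA4 a pair of peaks lay in the promoter, with 12 and 18 tags and folds of 2.24 and 3.17 (q = 0.858 and 0.0426). The former covers 189 bases of the printed sequence. A further FA4 peak overlapped a peak of NTD replicate 1 by 72 bases, at 15037353 to 15037917.

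**Figure D3:**
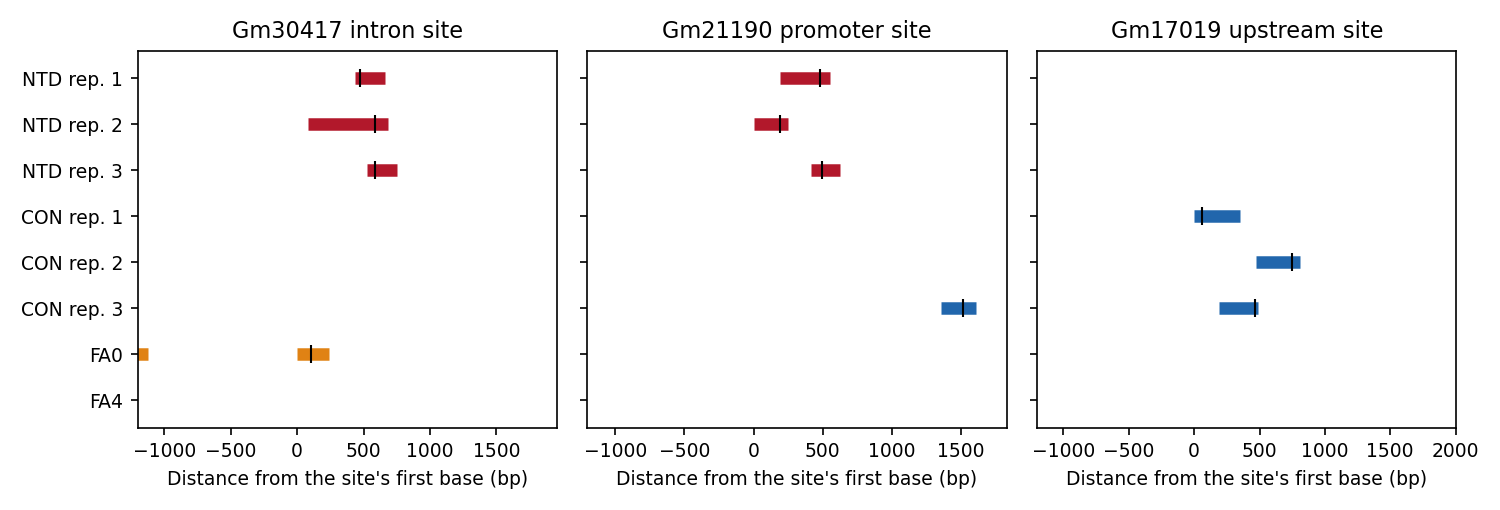
Peaks of the 8 lists (y axis) at the Gm30417, Gm21190 and Gm17019 sites against distance from the site's first base in bp (x axis), as bars with the summit marked. The 3 NTD peaks at Gm30417 share 139 bases, while the peaks at Gm21190 and at Gm17019 form chains in which 1 pair of lists does not overlap.

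Sites found in more than 1 list were more frequent here than over the genome. Of the cluster's 89 sites over all 8 lists, 15 (16.9%) were held by at least 2 lists, against 2.06% of all 88473 sites. Among brain lists the count was 10 of 65 sites (15.4%), against 1.69%. The 3 sites that chose the genes are among these 10, so the share is a description and supports nothing. Without them, 7 of 62 brain sites (11.3%) were held by at least 2 lists, in a window still chosen with the lists known. Of the 10 sites, 6 were shared within 1 brain group. The 3 sites that chose the genes are among these 6 by the rule of choice, so this number supports nothing. At the other 4, a peak of NTD met a peak of CON, with 1 list of either group. Upstream of Speer4e (14941054 to 14941421) NTD replicate 3 had 14 tags and CON replicate 1 had 10. Upstream of Gm10354 (14981221 to 14981699) NTD replicate 2 had 9 tags and CON replicate 1 had 10. The authors classed the former as a promoter peak and the latter as upstream. In intergenic sequence near the same gene (15004750 to 15005135) NTD replicate 1 had 13 tags and CON replicate 2 had 9. The remaining site is the place upstream of Gm30417 described above. NTD replicates 2 and 3 shared the Speer4cos promoter, of a transcribed pseudogene that overlaps Speer4c (15681756 to 15682127, 7 and 10 tags). They also shared a site upstream of Gm21149 (15479896 to 15480354, 11 and 8 tags) with FA0, where the peak had 25 tags. CON replicates 2 and 3 shared a site within the span of Speer8-ps1 (14961863 to 14962344, 10 and 11 tags). The authors classed the peak of replicate 3 as in an intron of Speer8-ps1. They classed that of replicate 2 as intergenic and assigned it to Gm10354, so counts by gene symbol split this site.

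Brain and cells met at 6 of the 30 sites with a cell peak, against 1.41% of such sites over the genome. NTD lists were part of 3 of them and CON lists of the other 3. Among the NTD sites is the Gm30417 site, which led to the choice of that gene. The window was also chosen with the brain lists known, so this contrast with the genome is a description and supports nothing. The CON sites lay near Gm9758 (14906392 to 14906799, with FA4), at the promoter of LOC108168719, the noncoding Gm30613 in RefSeq (15604599 to 15605077, with FA4), and upstream of Gm30417 (15643639 to 15644020, with both cell lists). FA0 and FA4 shared 2 sites. At Speer4e, upstream of the gene (14940447 to 14940832), FA0 had 34 tags with fold 3.64 (q = 1.25e-06) and FA4 41 tags with fold 3.27 (q = 9.90e-07). At the site upstream of Gm30417 that CON replicate 2 also held with 7 tags, FA0 had 43 tags with fold 2.24 (q = 0.0180) and FA4 49 tags with fold 2.69 (q = 2.13e-05).

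Other cluster genes had from 0 to 10 brain peaks over the 6 lists, without a common direction, and Gm21149 with 10 and Speer4cos with 8 had more than the 4 of Gm21190. Among the protein-coding copies, Gm10354 had 2, 1 and 0 peaks in NTD against 1, 3 and 0 in CON. For Gm9758 the NTD counts were 0, 1 and 2 and the CON counts 1, 2 and 0. For Gm21149 they were 3, 2 and 1 against 1, 2 and 1. All 3 of these overlapped between the groups. The transcribed pseudogenes did not move together. Speer4cos had 2 peaks in every NTD list, of 5790, 5620 and 7100 peaks. In CON it had 1, 1 and 0, in lists of 2797, 6614 and 3992. As a share of the list the groups overlapped. Speer8-ps1 had 1, 0 and 0 in NTD against 1, 0 and 3 in CON. By gene symbol, Speer4d had none in brain and 4 in the cells. By position, brain peaks assigned to Gm30417 and LOC108168719 met such cell peaks, at the sites from 15630359 and from 15604599. The cell lists used another transcript set, so the symbol does not separate brain from cells. Speer4c had 1, 0 and 1 in NTD against none in CON, and Speer4e had 0, 0 and 1 against 2, 0 and 0. Gm21083, named LOC105242399 in the files, had 0, 0 and 1 against 1, 2 and 0.

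In the cells the window's peaks were taller than usual. They had a median of 26 tags in FA0 and 22.5 in FA4, against 8 over either whole list, whereas brain lists had medians of 9 to 12 in the window and 8 or 9 overall. Deposited q was at most 0.05 for 7 of 16 FA0 peaks and 5 of 16 FA4 peaks, against 2.67% and 4.68% of the lists. In brain, 1, 1 and 0 peaks of the window had such a q in NTD (6.67%, 8.33% and 0%). In CON the counts were 0, 2 and 1 (0%, 12.5% and 11.1%). Over the whole lists the shares were 1.12%, 1.16% and 0.831% in NTD and 2.36%, 1.18% and 1.85% in CON. These are few peaks, since 64 of the 78 brain peaks had a q of 1. The fold was not higher in the cells, with medians of 2.38 and 2.50 in the window against 2.85 and 2.84 over the lists. The FA0 peaks with the highest folds lay at Gm9758 (3.75, 17 tags), Speer4e and Speer4d (3.51, the peak that meets the Gm30417 site). In FA4 the highest fold was that of a peak of 9 tags in an intron of Pclo, which encodes a presynaptic scaffold protein and is a neighbour rather than a copy (3.49, q = 0.274). It was followed by the promoter of 4930572O03Rik (3.31, 24 tags, q = 0.00238) and by Speer4e.

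The peaks also stood on a higher background than most peaks of their lists. Each peak's background, taken to come from the input, was recovered from its tags and fold, and was called raised where it was over 1% above the commonest value of its list. It was raised at 73.3%, 75% and 50% of the NTD peaks in the window, against 11.7%, 11.4% and 9.58% of the whole lists. In CON it was raised at 66.7%, 56.2% and 77.8%, against 16.9%, 11.0% and 13.4%. The window thus stood above the whole list in every brain list. The group means, 66.1 ± 14.0% and 66.9 ± 10.8% (SD, n = 3 lists), differed by less than the spread within either group. In FA0 and FA4 it was raised at 15 of 16 peaks each (93.8%), against 35.4% and 39.8%. The window's median background was 1.03 to 1.39 times the commonest value in the brain lists, and 4.71 and 4.53 times in FA0 and FA4, with single peaks at up to 10.03 times. Its part in the number, height and recurrence of peaks here was not tested.

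**Figure D4:**
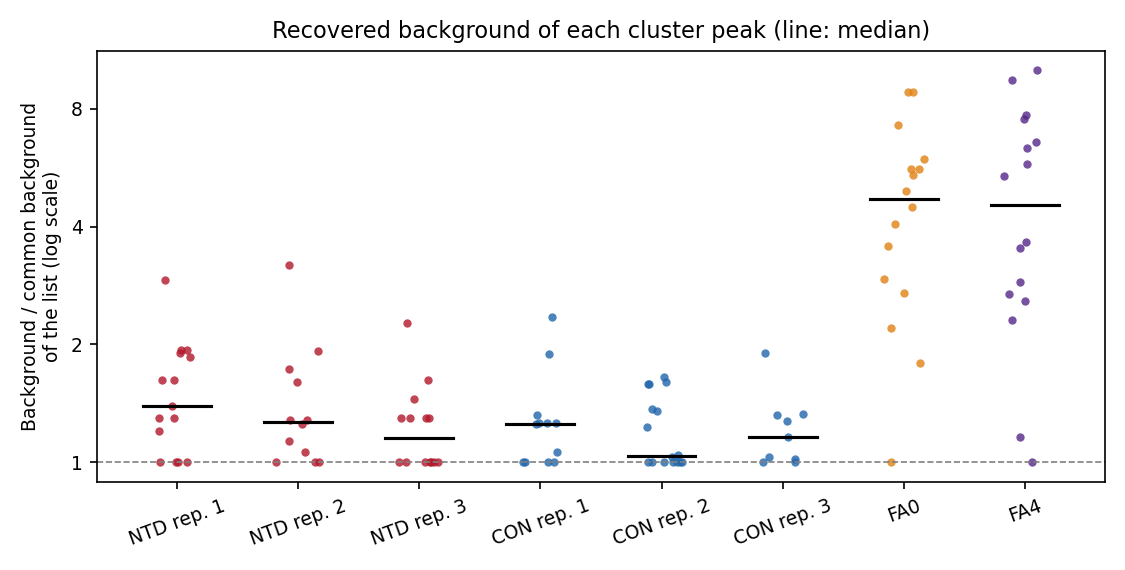
Recovered background of each peak in the cluster, divided by the commonest background of its list (y axis, log scale), for the 8 lists (x axis), with points for peaks and a line at the median. Medians lie at 1.03 to 1.39 in the brain lists and at 4.71 and 4.53 in FA0 and FA4.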

How the data were processed

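Sonicated DNA was immunoprecipitated with a 6mA kit and sequenced beside input, per the labels' protocols. The submitters' processing notes name cutadapt 1.9.2, Bowtie2 2.2.4 and mm10, while a peak caller was not given in the sources used here. Brain lists named Control were taken as CON, and those named Case as NTD, the only other brain group. Each immunoprecipitation has its own list, per the file headers. The tag count of a peak, as deposited, is unscaled, judged from its whole values, and could be either a total or a summit height. The authors wrote p-value and q-value as −log10. Fold is a ratio that the authors deposited, and its values were read as tags plus 1 divided by background plus 1, from which the background was recovered. Read totals per library were not used here. Small tag counts limit the precision of each peak.

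Rows were reduced to 1 per peak with Python 3.11.15, numpy 2.4.6 and pandas 2.3.3. Promoters came from RefSeq (GRCm38.p6) and were aligned with blastn 2.17.0 and biopython 1.88. Figures used matplotlib 3.10.9. Joining of peaks and recovery of background were tested on simulated data. The simulated folds were built with the same formula that recovers the background. This checks the arithmetic, and cannot show that the deposited folds follow the formula or that the background comes from the input. Members and lists were chosen with earlier results of these data known, so no test was made. Named genes are the 3 members, genes with a peak in a site of at least 2 lists, Speer genes with a peak, the genes of the 3 cell peaks of highest fold per condition, and those whose promoter is most like a member's. Other window genes are named to place the blocks and the outlying peaks. Alternatives were a fold of at least 3, a q of at most 0.05, the commonest background only, member genes only, a window narrower by 100 kb at each end, another overlap, lists of equal length, each brain list left out, and a background raised by over 50%.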

Additional observations from a re-analysis of the deposited data

How the results depend on the processing

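The window narrowed by 100 kb at each end left the brain values within the spread and the site counts as they were. FA0 and FA4, which have no spread between lists, held 15 peaks each instead of 16. Their shares at raised background became 100%. Mean peaks per list in the window were 6.33 in NTD and 4.33 in CON at a fold of at least 3, 0.667 and 1.00 at a q of at most 0.05, 4.67 and 4.33 at the commonest background, and 5.00 and 3.67 for the member genes alone. Mean peaks of the member genes were 3.00 and 1.33, 0.667 and 0.333, and 2.33 and 1.33 under the first 3 of these. FA0 and FA4 held 5 and 5, 7 and 5, 1 and 1, and 4 and 5 peaks under the same 4 settings in that order. Sites of at least 2 lists numbered 3, 3, 2 and 4.

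The 2 sites of the NTD lists alone became 0 at a fold of at least 3 and at a q of at most 0.05. They became 1 at the commonest background (Gm21190), with an overlap of at least 50% of the shorter peak and in lists of equal length. The CON site (1) became 0 under all 5 of these settings. Alternatives added after seeing the data asked for a base covered by every list of the group, which left 1 NTD site (Gm30417) and 0 CON sites, and for no cell peak in the site, which left 1 NTD site (Gm21190). Leaving out a brain list gave 2 to 3 NTD sites and 0 to 2 CON sites, with 0 without CON replicate 3 and 2 without CON replicate 1.

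The share of peaks at raised background was 31.4% in NTD and 17.6% in CON where raised meant over 50%, 50% in NTD for the member genes and 55.6% in CON at a fold of at least 3. Where raised meant over 50%, it was 93.8% in FA0 and 87.5% in FA4. Shares of the whole lists were not taken at that cutoff, so there the window cannot be set against its lists. At a fold of at least 3 the window's share was 100% in FA0 and 80.0% in FA4. In both cell lists it was 100% at a q of at most 0.05 and for the member genes. A brain value at a q of at most 0.05 could not be had, since 1 list of each group had no such peak. No paired analysis was possible because no result comes from a test. The lists of both brain groups are numbered 1 to 3 in the files, but no label says that equal numbers mark a shared animal, litter or day.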

Other observations

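The same promoter family stands elsewhere on chromosome 5, with 12 members between 25942317 and 26257811, among them Speer4a, and 1 member, Speer4b, at 27501343. They were 94.3% to 98.2% identical to the Gm21190 promoter. With 50 kb added at each end, the block of 12 held 2, 5 and 6 peaks in NTD (4.33 ± 2.08, SD, n = 3 lists), 1, 3 and 7 in CON (3.67 ± 3.06, SD, n = 3 lists), 14 in FA0 and 12 in FA4. The block of 9 in the window, measured the same way, held 15, 12 and 12 in NTD, 12, 15 and 9 in CON, 16 in FA0 and 15 in FA4, over 900 kb against 415 kb. Per 100 kb the block of 12 thus held 0.241 to 1.68 peaks in brain lists against 1.00 to 1.67 in the block of 9, and 3.37 and 2.89 in FA0 and FA4 against 1.78 and 1.67. The 900 kb of the block of 9 include the 401 kb stretch without peaks or genes, which lowers its values per 100 kb. Whether that stretch could be read was not examined, so these densities cannot rank the blocks. None of its 24 brain peaks had a q of at most 0.05.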
